A study of Mus musculus with 6 samples.

Results

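The collagen genes were followed in mouse ovarian tumours grown with and without 17β-oestradiol (E2). Members were the probe sets whose platform annotation names exactly 1 gene with a symbol of the form Col, number, a, number, and the probe set of highest mean stood for each gene. This gave 44 collagen genes of 19937 genes measured: 11 fibrillar collagens, 8 collagens of basement membranes and 25 others. The tumours were of MASE2 cells, 1 cell population taken from the ascites of a tgCAG-LS-TAg mouse that had itself received E2. In that donor model an intrabursal adenovirus carrying Cre recombinase switches on the SV40 large and small T antigens in ovarian surface epithelium, and the cells were then cultured in MOSE media. SCID mice, which lack mature lymphocytes but keep fibroblasts, vessels and macrophages, were injected with MASE2 cells and given a placebo pellet (3 tumours) or an E2 pellet (3 tumours) at the same time. Every tumour was taken once its host had lost wellness, and the ages of the mice are not given in the labels. RNA of each tumour was hybridised to 1 whole-transcript array, the values are log2 intensities, and a difference is E2 minus placebo.

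Collagens are proteins of the extracellular matrix in which 3 chains wind into a triple helix. Fibrillar collagens assemble into the cables of connective tissue, type IV collagen forms the sheet-like network of basement membranes under epithelia and around vessels, and the other families sit on fibrils, form beaded filaments or span the plasma membrane. In tumours of the ovary, fibroblasts, pericytes and mesothelial cells are known sources of collagen, and tumour cells also make type IV chains.

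The placebo tumour of replicate 3 stood apart. Its values correlated with the other arrays at r = 0.857 to 0.865 across genes, against 0.960 to 0.994 among the other arrays. All 10 enterocyte markers listed, such as Alpi and Fabp2, were highest in it, and the log2 of their summed intensity reached 13.81 there against 7.81 in the lowest placebo tumour and 7.83 to 7.87 with E2. Of 8 smooth muscle markers, 6 were highest in it. Of the 44 collagens, 22 had their lowest placebo value in this tumour and 17 their highest. Over all 19937 genes, 8850 had their lowest placebo value there, 7590 their highest, and 5565 their highest of all 6 tumours. The counts of collagens and of cell type markers that passed are therefore given with all 6 arrays and without that tumour. Of the markers of ovarian and simple epithelium, Muc16 lay between 3.50 and 4.55 and Pax8 between 4.86 and 5.52, where the lower quartile of genes was 4.22 to 4.39 over the arrays, while Krt8 lay at 7.65 or above in every tumour. With all arrays, all 8 markers of that list had lower means with E2, as did 51.7% of all genes. Placebo replicate 3 had the highest value of all tumours for 6 of the 8. Without it 6 had lower means and 2 higher, against lower means in 52.5% of all genes. Krt7 fell with all arrays, from 7.36, 7.99 and 7.67 to 5.34, 5.29 and 5.30 (log2 change -2.36, adjusted p = 0.00445). In limma, 1 of the 8 was lower with all arrays and 2 without placebo replicate 3, against 0.326% and 5.21% of all genes. The list had a log2 summed intensity of 11.16, 10.33 and 12.88 in placebo replicates 1 to 3 and of 9.89 to 10.27 with E2. Their part in the collagen values was not tested.

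With all arrays, 2 collagens rose with E2 and 0 fell at an adjusted p under 0.05 in limma, and 42 did not pass. Both that rose were chains of type IV collagen, Col4a1 and Col4a2. Over all genes 1.06% rose and 0.326% fell by that test. Without regard to multiple testing, 10 collagens had a p under 0.05, against 16.5% of all genes. The group mean was higher with E2 for 7 collagens and lower for 37, against lower means in 51.7% of all genes. The median difference was -0.17, against -0.01 for all genes. The count of lower means was 34 when the arrays were quantile normalised again, against 46.7% of all genes. It was 32, against 34.5% of all genes, when each array was centred on its median. Centring raised every difference by 0.08, so that smaller negative differences changed sign. Values of 3 collagens with E2 lay wholly above those with placebo, and of 12 wholly below, against 14.9% and 11.4% of all genes. Without placebo replicate 3, 2 collagens were higher and 13 lower in limma, against 6.4% and 5.21% of all genes. Values then failed to overlap for 3 collagens higher and 22 lower with E2, against 21.2% and 20.4% of all genes. In these bulk samples, fewer cells of a type and less RNA per cell cannot be told apart.

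**Figure D1:**
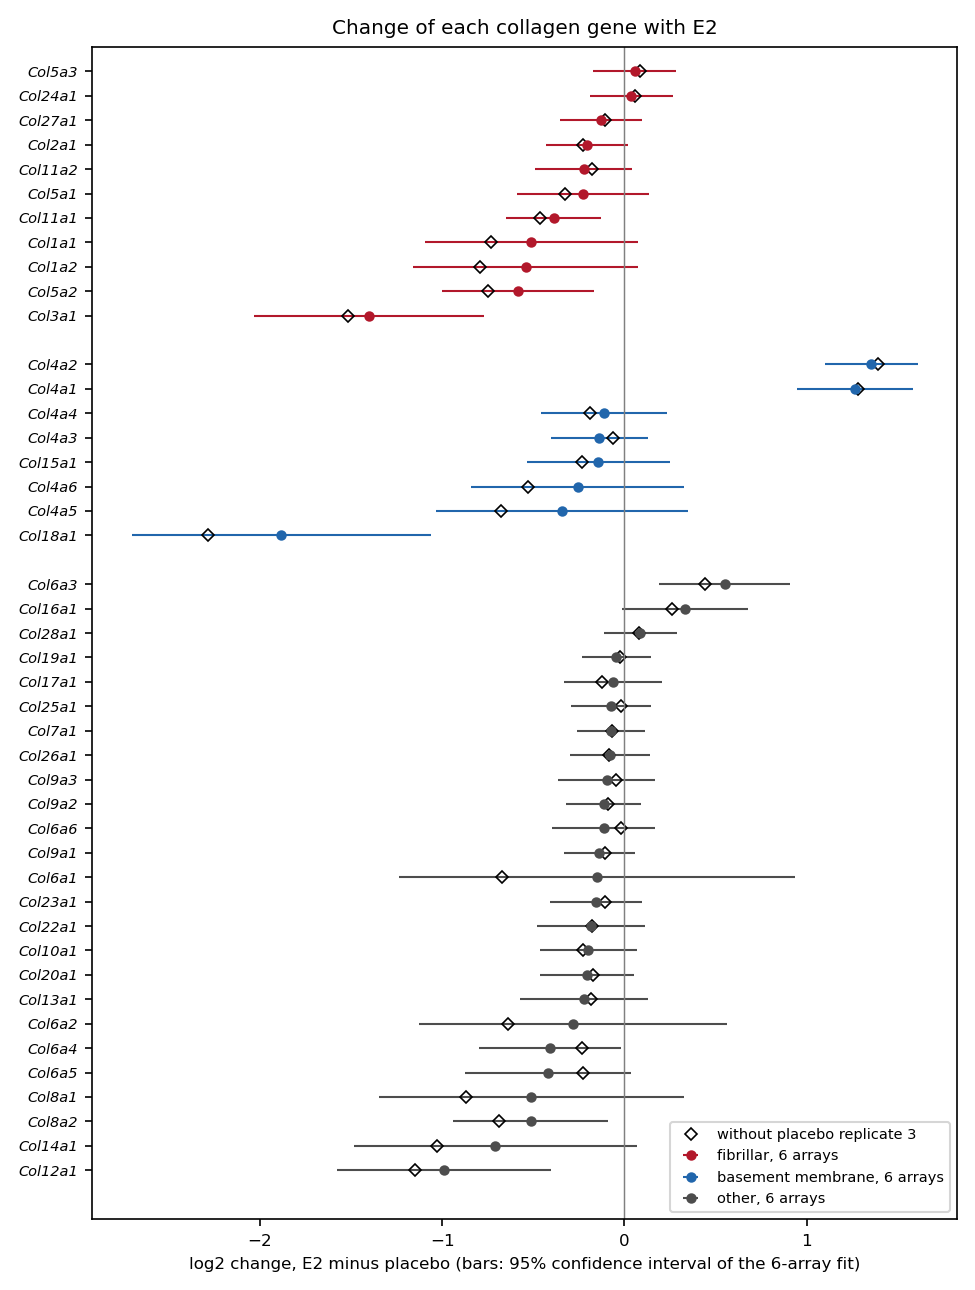
Log2 difference of each of the 44 collagen genes, E2 minus placebo, grouped by class on the vertical axis; filled points with bars give the 6-array estimate and its 95% confidence interval, and open diamonds the estimate without placebo replicate 3. Col4a1 and Col4a2 stand at 1.26 and 1.35 on the right, while Col18a1 at -1.88 and Col3a1 at -1.40 lie farthest to the left.

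Among the basement membrane collagens, the chains Col4a1 and Col4a2 rose 2.40-fold and 2.55-fold with E2, and Col18a1 had the largest difference of any collagen in the lower direction, which did not pass the test with all arrays. The products of Col4a1 and Col4a2 wind together into the most widespread form of type IV collagen. Their genes start head to head on chromosome 8: in RefSeq annotation of GRCm38.p6, Col4a2 runs on the plus strand and Col4a1 on the minus strand, and their annotated transcripts overlap by 22 bases at the starts. That overlap is shown because the 2 genes that rose share it, with a GC box (GGGCGG) in capitals.
Col4a1/Col4a2 start overlap, chr8:11312805-11312826, plus strand: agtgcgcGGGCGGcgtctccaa

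Col4a1 was at 6.76, 6.81 and 6.85 in the placebo tumours and at 8.12, 7.82 and 8.27 with E2. The placebo tumours lay within a narrow band and every E2 tumour lay well above it. The mean went from 6.81 ± 0.04 to 8.07 ± 0.23 (SD, n = 3 each), a log2 rise of 1.26 (SE 0.13, 95% interval 0.94 to 1.58) or 2.40-fold, with an adjusted p of 0.0160 in limma. Col4a2 was at 6.78, 6.73 and 6.87 with placebo and at 8.21, 7.98 and 8.25 with E2. As for its partner, the groups did not overlap and the lowest and highest E2 values were those of replicates 2 and 3. Its mean went from 6.79 ± 0.07 to 8.15 ± 0.15 (SD, n = 3 each), a log2 rise of 1.35 (SE 0.10, 95% interval 1.10 to 1.61) or 2.55-fold, with an adjusted p of 0.00615. Without placebo replicate 3 the rises were 1.28 and 1.39, with adjusted p of 0.00124 and 0.000335. Placebo replicate 3 lay 0.06 and 0.11 above the mean of the other placebo tumours for these genes. Leaving out E2 replicate 1 gave adjusted p of 0.108 for Col4a1 and 0.0674 for Col4a2, and leaving out E2 replicate 3 gave 0.0750 and 0.0517. Leaving out placebo replicate 1 gave 0.0798 for Col4a1, and the rise was 1.16 or more in each of these fits.

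Col18a1 encodes a heparan sulphate-bearing collagen of epithelial and vascular basement membranes whose C-terminal fragment is endostatin. It was at 7.75, 7.85 and 6.60 with placebo and at 5.61, 5.45 and 5.51 with E2. The E2 tumours were close together and all below the placebo tumours, of which replicate 3 was the lowest. The mean went from 7.40 ± 0.70 to 5.52 ± 0.08 (SD, n = 3 each), a log2 difference of -1.88 (SE 0.34, 95% interval -2.70 to -1.06) or 3.68-fold, which did not pass in limma (adjusted p = 0.0661). Without placebo replicate 3 the difference was -2.28 and the adjusted p 2.33e-05. Leaving out any other tumour instead gave adjusted p of 0.132 to 0.274.

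The remaining type IV chains belong to specialised basement membranes. Col4a5 was at 6.03, 6.09 and 5.07 with placebo and at 5.48, 5.27 and 5.40 with E2, so that placebo replicate 3 alone lay below every E2 tumour. Its difference was -0.34 (adjusted p = 0.571), and -0.68 without that tumour (adjusted p = 0.00482). Col4a6, its neighbour on the X chromosome, had a difference of -0.26, and of -0.53 without that tumour (adjusted p = 0.0167). Col4a3 and Col4a4, the chains of the glomerular network, differed by -0.14 and -0.11, and Col15a1, a relative of Col18a1, by -0.14. These 3 did not pass with or without placebo replicate 3. The median difference over the 8 genes of the class was -0.14, and -0.21 without placebo replicate 3.

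**Figure D2:**
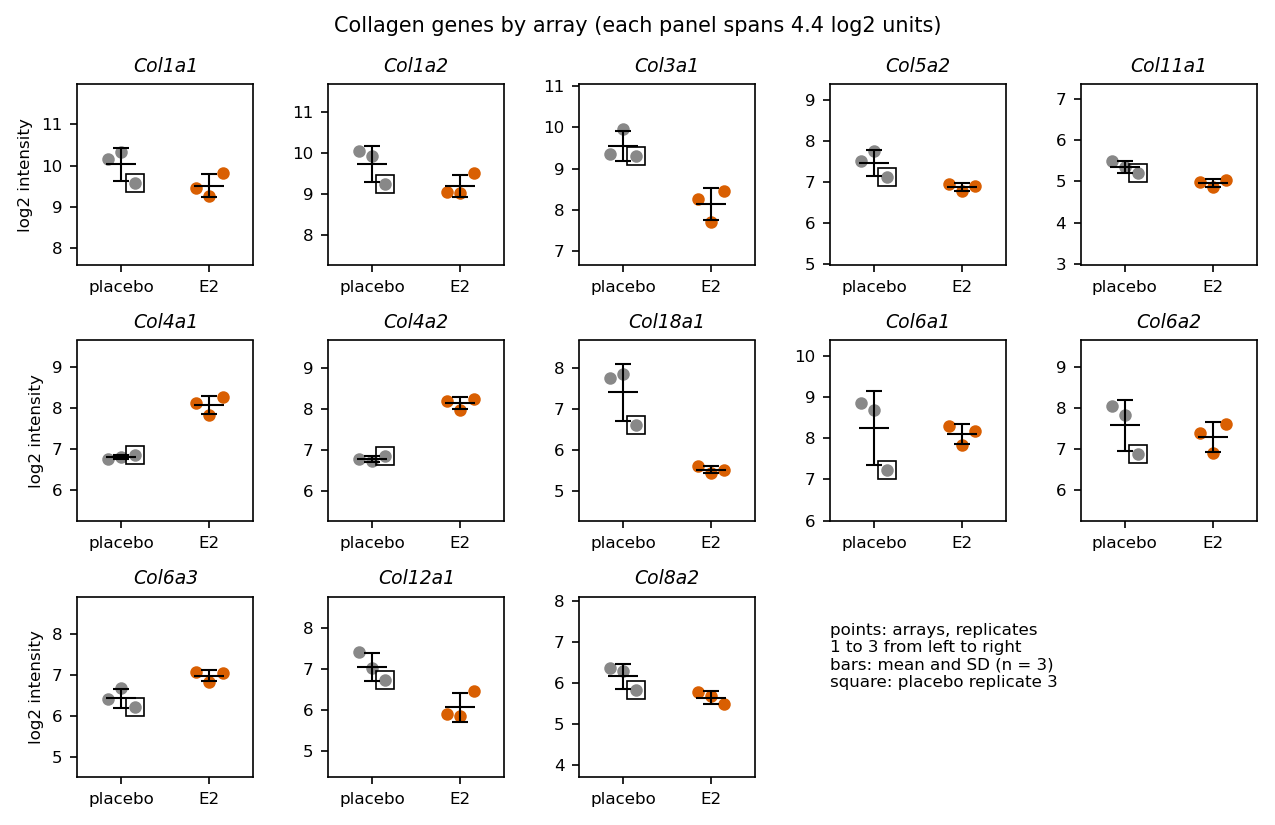
Log2 intensity of the collagens whose array values were named by rule, without Col4a5, Col14a1 and Col8a1. Each point is 1 tumour, with placebo and E2 side by side. Bars give mean and SD (n = 3), and a square marks placebo replicate 3. Col4a1 and Col4a2 lie higher with E2 and Col18a1 and Col3a1 lower, without overlap; placebo replicate 3 lies among the E2 values for Col1a1 and Col1a2 and below them for Col6a1.

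Of the 11 fibrillar collagens, 0 passed the limma test with all arrays and 3 had an unadjusted p under 0.05 (16.5% of all genes did). Means were lower with E2 for 9 of the 11, against 51.7% of all genes. The median difference was -0.23. Without placebo replicate 3, 5 were lower and 0 higher, against 5.21% and 6.4% of all genes, and the median was -0.32. The 5 were Col1a1, Col1a2, Col3a1, Col5a2 and Col11a1.

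Col3a1, the single chain of type III collagen in soft tissue and vessel walls, was at 9.36, 9.96 and 9.31 with placebo and at 8.27, 7.71 and 8.45 with E2. The groups did not overlap, and E2 replicate 2 was the lowest of all. The difference was -1.40 (SE 0.26, 95% interval -2.03 to -0.77) or 2.64-fold, with an adjusted p of 0.0704, and -1.52 without placebo replicate 3 (adjusted p = 0.00689). Leaving out any other tumour instead gave adjusted p of 0.123 to 0.236. Col3a1 and Col18a1 had the largest lower means of all collagens, so the bases before their RefSeq start sites are shown, each read along the strand of its gene. Capitals mark TATAAA for Col3a1. For Col18a1, which has 2 annotated starts, they mark the CCAAT box and the GC box where these lie on the opposite strand.
Col3a1, chr1:45311288-45311537, plus strand: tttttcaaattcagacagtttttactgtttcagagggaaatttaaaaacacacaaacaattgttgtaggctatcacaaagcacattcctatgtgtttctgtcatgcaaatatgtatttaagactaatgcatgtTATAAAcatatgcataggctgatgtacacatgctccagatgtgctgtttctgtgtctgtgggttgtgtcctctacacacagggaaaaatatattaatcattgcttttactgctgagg
Col18a1, downstream start, chr10:77113706-77113955, minus strand: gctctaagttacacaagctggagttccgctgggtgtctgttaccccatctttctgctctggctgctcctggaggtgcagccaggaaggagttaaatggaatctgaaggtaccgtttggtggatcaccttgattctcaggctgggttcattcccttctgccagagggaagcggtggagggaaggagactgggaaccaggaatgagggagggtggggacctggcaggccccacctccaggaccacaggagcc
Col18a1, upstream start, chr10:77166531-77166780, minus strand: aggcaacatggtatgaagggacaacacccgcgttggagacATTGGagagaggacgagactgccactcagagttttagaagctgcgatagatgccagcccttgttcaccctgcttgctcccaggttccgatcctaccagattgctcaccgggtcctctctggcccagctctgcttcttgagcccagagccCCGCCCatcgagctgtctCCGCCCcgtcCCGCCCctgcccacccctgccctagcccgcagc

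Over the family, 35 of the 44 genes had a RefSeq window from 250 bases before to 50 bases after a start, 38 windows in all. Searched on both strands, the palindromic oestrogen response element (GGTCA and TGACC with any 3 bases between) was in 0 of these windows. It was in 0.07% of the 32851 windows searched, which did not cover every chromosome. The GC box GGGCGG was in 23 collagen windows (60.5%, against 35.7% of all searched), CCAAT in 13 (34.2%, against 37.4%) and TATAAA in 5 (13.2%, against 13.6%). The windows of Col4a1 and Col4a2 overlap, as do those of Col6a2, so the same bases can be counted more than once. Col1a1, Col5a2, Col12a1 and Col14a1 were among the genes without a window. A match describes these letters in these windows only.

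The chains of type I collagen, the main fibril of tumour stroma, were among those in which placebo replicate 3 lay among the E2 tumours. Col1a1 was at 10.17, 10.33 and 9.58 with placebo and at 9.46, 9.26 and 9.82 with E2. Only that placebo tumour overlapped the E2 values. The difference was -0.51 (SE 0.24, 95% interval -1.09 to 0.07, adjusted p = 0.356), and -0.73 without it (adjusted p = 0.0249). Col1a2 was at 10.04, 9.92 and 9.23 with placebo and at 9.05, 9.01 and 9.51 with E2. It showed the same order of groups, with a difference of -0.54 (adjusted p = 0.356) and of -0.79 without placebo replicate 3 (adjusted p = 0.0166).

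Types V and XI join type I and type II fibrils and limit their width. Col5a2 was at 7.50, 7.76 and 7.13 with placebo and at 6.95, 6.77 and 6.91 with E2. The groups did not overlap, and the difference was -0.58 (SE 0.17, adjusted p = 0.181), or -0.75 without placebo replicate 3 (adjusted p = 0.00548). Col11a1, a chain often seen in activated fibroblasts, was at 5.49, 5.36 and 5.20 with placebo and at 4.99, 4.86 and 5.04 with E2. These groups did not overlap either, with a difference of -0.39 (SE 0.11, adjusted p = 0.163), or -0.46 without that tumour (adjusted p = 0.0245). The other fibrillar genes differed by less: Col5a1 by -0.23, Col11a2 by -0.22, Col2a1 of cartilage by -0.20, Col27a1 by -0.13, Col24a1 by 0.04 and Col5a3 by 0.06. None of these 6 passed in limma with all arrays or without placebo replicate 3.

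Of the 25 other collagens, 22 had lower means with E2 (19 after quantile normalisation again and 17 after centring). Over all genes these shares were 51.7%, 46.7% and 34.5%. With all arrays 0 of the 25 passed in limma and 4 had an unadjusted p under 0.05, against 16.5% of all genes. Their median difference was -0.15, and -0.12 without placebo replicate 3. Without that tumour 5 were lower, against 5.21% of all genes, namely Col6a1, Col8a1, Col8a2, Col12a1 and Col14a1.

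Type VI collagen builds beaded microfilaments around cells from the products of Col6a1, Col6a2 and Col6a3. Col6a3 was at 6.40, 6.68 and 6.21 with placebo and at 7.08, 6.82 and 7.04 with E2. All E2 tumours were above all placebo tumours, with a difference of 0.55 (SE 0.15, 95% interval 0.19 to 0.91) that did not pass (adjusted p = 0.154), or 0.44 without placebo replicate 3 (adjusted p = 0.0637). Col6a1 was at 8.87, 8.68 and 7.22 with placebo and at 8.29, 7.83 and 8.19 with E2. Placebo replicate 3 was the lowest of the 6 tumours and the other placebo tumours were the highest, so the difference was -0.15 with it (adjusted p = 0.889) and -0.67 without it (adjusted p = 0.0252). Leaving out placebo replicate 1 or 2 instead turned it to 0.15 or 0.06. Col6a2 was at 8.05, 7.83 and 6.88 with placebo and at 7.39, 6.91 and 7.62 with E2, and it followed the order of Col6a1, with a difference of -0.28 (adjusted p = 0.707) and of -0.64 without that tumour (adjusted p = 0.0797). The alternative chains Col6a4, Col6a5 and Col6a6 differed by -0.41, -0.42 and -0.11 and did not pass; a second probe set of Col6a5 differed by -0.88 and one of Col6a6 by -0.05.

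Fibril-associated collagens sit on the surface of fibrils. Col12a1 was at 7.42, 7.02 and 6.74 with placebo and at 5.90, 5.85 and 6.48 with E2. The groups did not overlap, with a difference of -0.99 (SE 0.24, 95% interval -1.57 to -0.40, adjusted p = 0.126), or -1.15 without placebo replicate 3 (adjusted p = 0.0112). Col14a1, of the same family, was at 7.71, 7.74 and 6.77 with placebo and at 6.66, 6.35 and 7.07 with E2. Placebo replicate 3 lay among the E2 values, and the difference was -0.71 (adjusted p = 0.340) with it and -1.03 without it (adjusted p = 0.0120). Col16a1 was the family's exception in direction, with a mean 0.33 higher with E2 (adjusted p = 0.322). Col9a1, Col9a2, Col9a3, Col19a1, Col20a1 and Col22a1 differed by between -0.21 and -0.04 and did not pass.

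Type VIII collagen forms hexagonal lattices under endothelium. Col8a2 was at 6.37, 6.30 and 5.82 with placebo and at 5.78, 5.68 and 5.48 with E2, groups that did not overlap, and its difference was -0.51 (SE 0.17, adjusted p = 0.230), or -0.69 without placebo replicate 3 (adjusted p = 0.00796). Col8a1 was at 6.67, 6.08 and 5.29 with placebo and at 5.35, 5.44 and 5.71 with E2. Its values overlapped, with a difference of -0.51 (adjusted p = 0.504), or -0.87 without that tumour (adjusted p = 0.0211). The rest of the class lay close to no difference: the anchoring fibril gene Col7a1 at -0.08, the membrane-spanning Col13a1, Col17a1, Col23a1 and Col25a1 at -0.22, -0.06, -0.16 and -0.07, Col10a1 of growth-plate cartilage at -0.20, Col26a1 at -0.08 and Col28a1 at 0.09. None of these 8 passed in limma with or without placebo replicate 3. Col10a1 was the only collagen below the lower quartile of genes on some array, and 11 collagens were below the median of genes on all arrays.

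**Figure D3:**
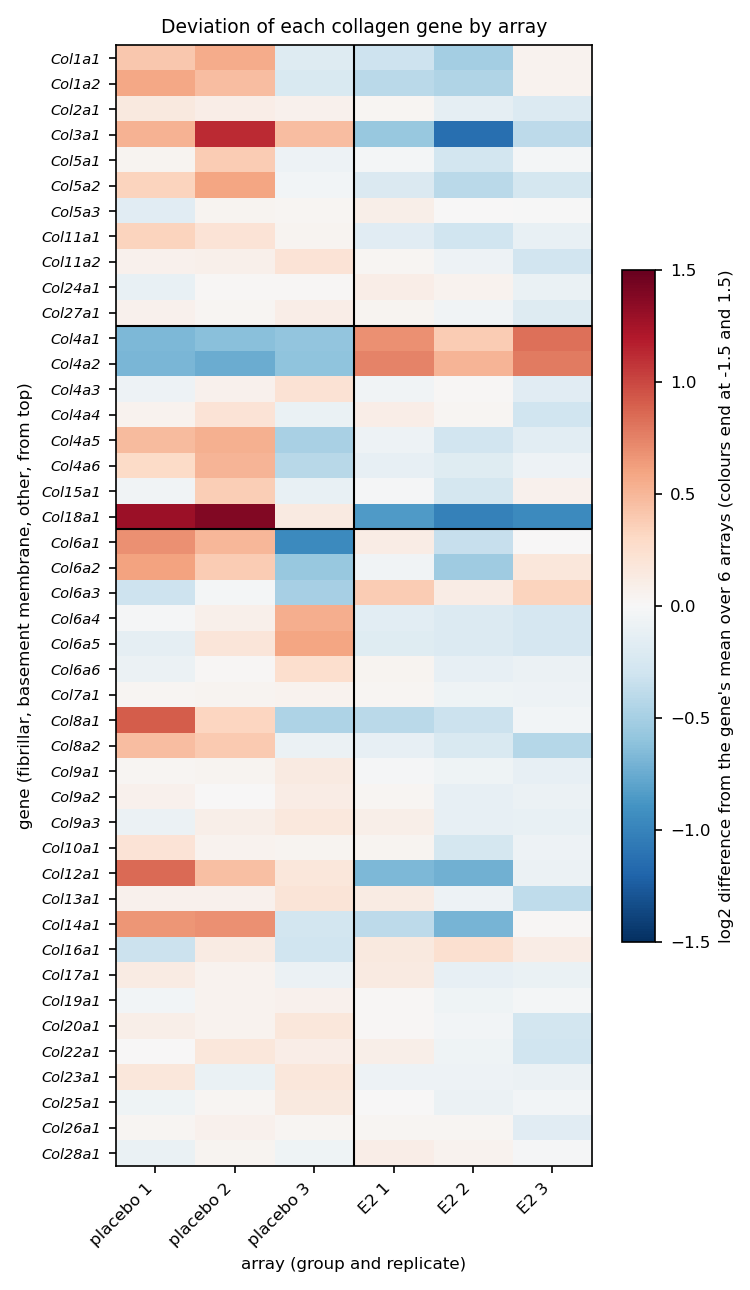
Each of the 44 collagens (rows, by class) on each of the 6 arrays (columns), coloured by its log2 intensity minus the gene's mean over the arrays. The rows of Col4a1 and Col4a2 are high in the 3 E2 columns, and the column of placebo replicate 3 departs from the other placebo columns for Col6a1, Col4a5 and Col18a1.

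Chains that share a triple helix were compared with each other, as the difference between their changes in the same tumours, in 10 pairs. With 3 tumours against 3 an exact two-sided permutation test cannot go below p = 0.10. Col4a1 and Col4a2 differed in change by -0.09 (SE 0.06, exact permutation p = 0.3), and Col1a1 and Col1a2 by 0.03 (SE 0.10, exact permutation p = 0.8). Col5a1 and Col5a2 were the 1 pair whose chain difference did not overlap between groups, with 0.35 (SE 0.08) and the smallest p that is possible, 0.10. Col6a3 and Col6a1 were farthest apart, by 0.70 (SE 0.43, exact permutation p = 0.4), and by 1.11 without placebo replicate 3. After Benjamini-Hochberg adjustment over the 10 pairs none passed.

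The proteins that hydroxylate, fold, trim, crosslink and bind collagen were described from a list of 51 genes, of which 48 were measured. With all arrays 1 rose, 0 fell and 47 did not pass in limma, with 12 at an unadjusted p under 0.05. Over all genes these shares were 1.06% higher, 0.326% lower and 16.5% at an unadjusted p under 0.05. Of the means, 31 were higher with E2 and 17 lower, against lower means in 51.7% of all genes, with a median difference of 0.18. Without placebo replicate 3, 7 were higher and 7 lower, against 6.4% and 5.21% of all genes, and the median was 0.06. That tumour was the lowest placebo tumour for 34 of the 48 genes, and for 8850 of all 19937 genes. The gene that rose was Colgalt2, which attaches galactose to hydroxylysine of collagen. It was at 4.38, 4.82 and 4.19 with placebo, of which the last is below the lower quartile of genes, and at 5.92, 5.60 and 5.83 with E2. The groups did not overlap, and the rise was 1.32 (SE 0.18, 95% interval 0.86 to 1.77, adjusted p = 0.0364), or 1.18 without placebo replicate 3 (adjusted p = 0.00295). The call was lost when placebo replicate 1 or any 1 of the E2 tumours was left out, with adjusted p of 0.127 to 0.189.

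Of 7 genes for removal of the propeptides of procollagen, 3 were higher without placebo replicate 3, against 6.4% of all genes. These 3 did not pass with it. Pcolce, the enhancer of that cut, was at 8.31, 8.72 and 7.35 with placebo and at 9.63, 9.63 and 9.74 with E2, a difference of 1.54 (adjusted p = 0.102), or 1.15 without that tumour (adjusted p = 0.00162). Bmp1, the C-propeptidase, differed by 0.83 (adjusted p = 0.0918), or 0.65 (adjusted p = 0.0094), and Adamts3, an N-propeptidase, by 1.54 (adjusted p = 0.0694), or 1.44 (adjusted p = 0.0137). All 3 had every E2 value above every placebo value. Of the 7 genes, 4 lay wholly above and 1 (Tll1, -0.28) wholly below, against 14.9% and 11.4% of all genes. Means were higher with E2 for 4 of the 7 and lower for 3.

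Of the lysyl oxidases that crosslink fibrils, Loxl1 was at 6.41, 6.57 and 5.91 with placebo and at 5.29, 5.11 and 5.46 with E2. The groups did not overlap, and the difference was -1.01 (adjusted p = 0.0791), or -1.20 without placebo replicate 3 (adjusted p = 0.00108). Lox, the founding member, differed by 0.55 and did not pass in either fit. Itga2, the collagen-binding subunit of an integrin, was at 4.99, 5.26 and 6.59 with placebo and at 7.51, 7.20 and 7.69 with E2, a difference of 1.85 (adjusted p = 0.113), or 2.34 without that tumour (adjusted p = 0.000203). Placebo replicate 3 was here the nearest placebo tumour to the E2 group. Itga1, Itga10 and Itga11, the other subunits of that kind listed, went the other way, without overlap between groups. They differed by -0.97, -0.32 and -0.43 and did not pass with all arrays. Without placebo replicate 3 the differences were -0.84, -0.42 and -0.56 (limma adjusted p = 0.0496, 0.0673 and 0.00661). Among inducers of collagen, Smad3, which carries the transforming growth factor signal to the nucleus, differed by 0.58 (adjusted p = 0.0525), or 0.53 (adjusted p = 0.0117). Tgfb3, a ligand of that pathway, differed by -0.88 (adjusted p = 0.400), or -1.41 (adjusted p = 0.00139). Tgfb1, of the same inducer list, differed by 0.70 (adjusted p = 0.243), or 0.42 (adjusted p = 0.0315). Ccn2 and Scx, also listed there, differed by -0.41 and -0.34, or -0.57 and -0.57 (adjusted p = 0.0231 and 0.0190). P3h4, listed for hydroxylation, differed by -0.19, or -0.71 (adjusted p = 0.00571). The collagen chaperone Serpinh1 differed by 0.16, or -0.28 without placebo replicate 3, and the lysyl hydroxylase Plod2 by 1.20, or 0.84, and neither passed in either fit.

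**Figure D4:**
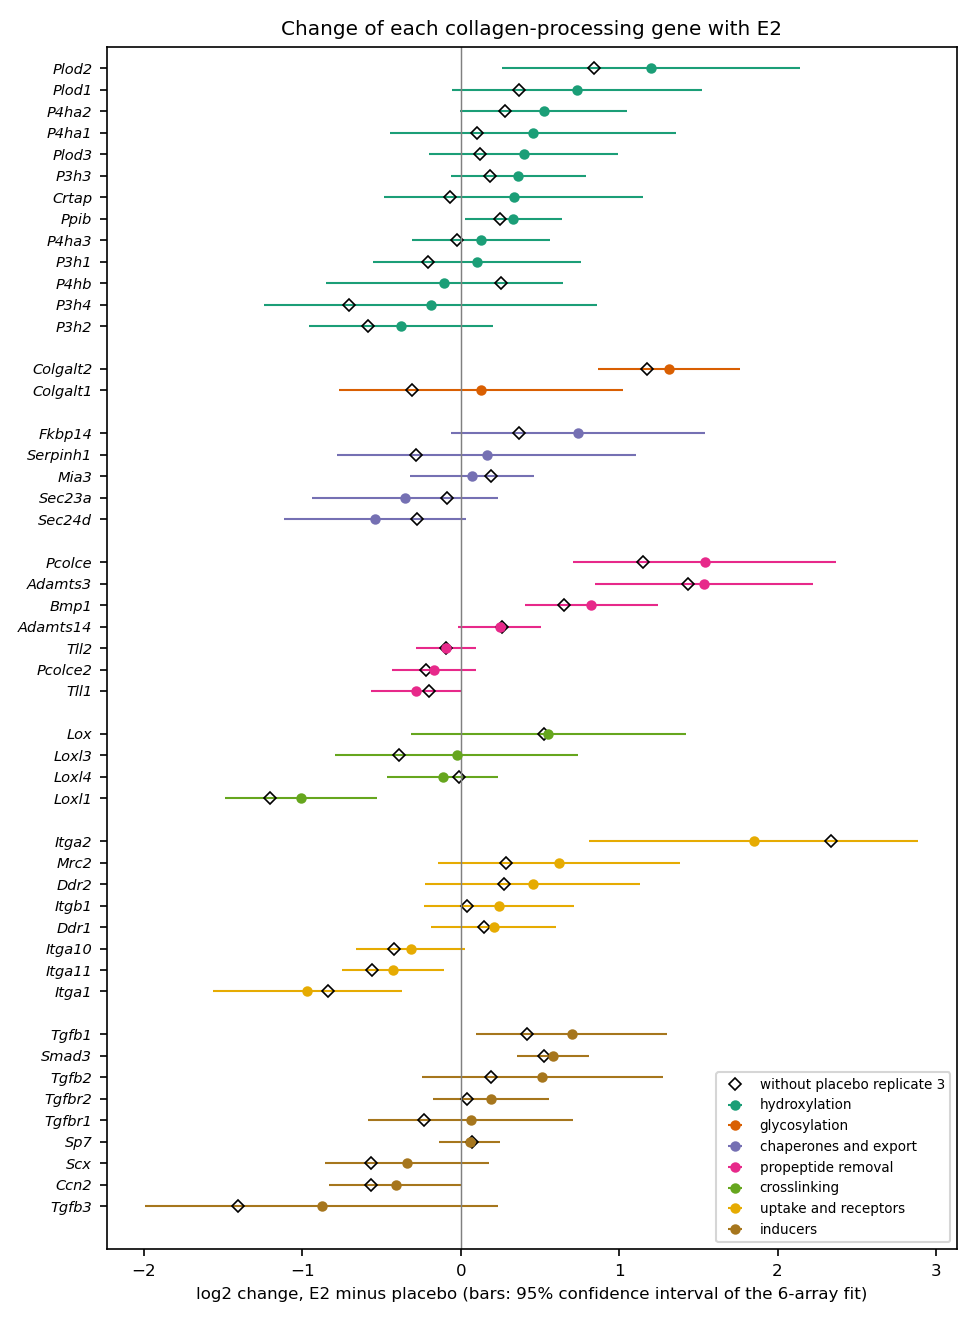
Log2 difference, E2 minus placebo, of the 48 genes that process, crosslink, bind or induce collagen, grouped by role, with 95% confidence intervals of the 6-array estimate and open diamonds without placebo replicate 3. Colgalt2 at 1.32 is the gene that passed, Itga2 at 1.85 lies farthest to the right and Loxl1 at -1.01 farthest to the left.

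Markers of cells that make collagen were read beside these values, with the log2 of the summed intensity of each list. The counts for every list stand against shares over all genes. With all arrays these were 1.06% higher and 0.326% lower in limma, and 16.5% at an unadjusted p under 0.05. Without placebo replicate 3 they were 6.4% higher and 5.21% lower. Means were lower with E2 for 51.7% of all genes with all arrays, and for 52.5% without that tumour. Of 10 fibroblast markers 0 passed in limma with all arrays and 4 had an unadjusted p under 0.05. Their means were lower with E2 for 7 of the 10, with a median difference of -0.32, and of -0.69 without placebo replicate 3. Lum, Thy1 and Fbln1 were then lower and Pdgfra was higher. The sum was 10.79 to 11.60 with placebo and 11.27 to 11.37 with E2, but much of it was Dcn, a fibril-binding proteoglycan of fibroblasts. Dcn was at 9.85, 10.78 and 9.95 with placebo and at 10.73, 10.86 and 10.71 with E2, a difference of 0.58 (adjusted p = 0.329), against the direction of most of the list.

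The 6 pericyte markers all had lower means with E2; 0 passed with all arrays, with 2 at an unadjusted p under 0.05, and 3 were lower without placebo replicate 3. Their sum was at 9.01 to 9.18 with placebo and 8.29 to 8.67 with E2. The 8 endothelial markers also all had lower means; 0 passed in limma with all arrays, 6 had an unadjusted p under 0.05, and 4 were lower without that tumour. Their sum was at 8.69 to 8.83 with placebo and 8.06 to 8.38 with E2.

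All 7 markers of mesothelium, the lining of the abdominal cavity with which ovarian surface epithelium is continuous, had lower means with E2. Of them 1 (Cldn15) fell with all arrays, with 6 at an unadjusted p under 0.05, and 6 were lower without placebo replicate 3. Their sum was 11.64 to 11.67 with placebo and 9.66 to 10.01 with E2, but its makeup differed in placebo replicate 3. There Krt19, which is also on the epithelial list, was at 11.19 against 10.15 and 9.20 in the other placebo tumours, while Upk3b was at 6.51 against 9.01 and 9.99 and Lrrn4 at 6.60 against 9.28 and 8.58. In all, 5 of the 7 had their lowest placebo value in that tumour, as did 8850 of all 19937 genes.

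Of 6 macrophage markers 0 passed with all arrays, with 1 at an unadjusted p under 0.05, and 4 were lower without placebo replicate 3. Their sum was at 10.30, 10.36 and 8.98 with placebo and at 9.29, 8.90 and 9.41 with E2, so that placebo replicate 3 alone lay among the E2 tumours. Means were lower with E2 for 5 of the 6, and for all 6 without that tumour. Adgre1, a surface receptor of mouse macrophages, had the largest difference, -1.36 (adjusted p = 0.357 in limma), or -2.11 without that tumour (adjusted p = 0.000514). Cd68, of highest mean, differed by -0.27 (adjusted p = 0.840), or -0.96 (adjusted p = 0.0014). Cd163 differed by 0.07, or -0.04. Of 8 smooth muscle markers 0 passed with all arrays, with 1 at an unadjusted p under 0.05, and 1 was higher and 1 lower without that tumour. Their sum was at 9.63 to 11.27 with placebo and 9.70 to 10.24 with E2, with Myh11 at 8.70 in placebo replicate 3. The 7 markers of cartilage and bone measured were at 7.25 to 7.38 with placebo and 7.17 to 7.37 with E2, and 0 passed in limma with or without that tumour, with 0 at an unadjusted p under 0.05 with all arrays. The part of these cell types in the collagen values was not tested.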

How the data were processed

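RNA of 6 MASE2 tumours, 3 placebo and 3 E2, was hybridised to 1 whole-transcript array each, per the labels' protocols. Per the submitters' processing notes the authors used RMA, and the deposited values are its log2 intensities, 1 per probe set and array. The program for it was not given in the sources used here. The method equalises array distributions and compresses changes near background, so that tissue mixed into 1 sample can shift its other genes. The deposited arrays still differed, with medians of 4.84 to 4.97 over all probe sets. Arrays carry no counts, so their number limits the precision.

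Of 34760 probe sets, 21640 named 1 gene, 1321 several and 11799 none in the platform annotation. The probe set of highest mean over all arrays stood for each gene, giving 19937 genes; 2 collagens had 2 probe sets. E2 was tested against placebo in limma 3.58.1 (lmFit, then eBayes; R 4.3.3), two-sided and without covariates, with Benjamini-Hochberg adjustment over all genes and a threshold of 0.05. The fit was tested on simulated data, with independent normal noise of the same size on all arrays for a given gene. Such data hold no array that stands apart as placebo replicate 3 did. Chain pairs used exact permutation tests. Intensities of different probe sets are not comparable as amounts of RNA; the rank of means was used only to choose genes to name, and quartiles and medians of genes only to mark dim signals. Promoter windows came from RefSeq (GRCm38.p6); 0 sample columns were unmapped.

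The members and lists were chosen with earlier results of these data known. Array values were named for Col1a1, Col3a1, Col4a1, called members, the 2 of highest mean in each class and the 3 largest non-overlapping changes in each class; the remaining named genes were picked with values in view. The series' design text calls the tumours biological replicates. Alternatives covered normalisation, dim-gene filters, probe set choice, variance model, array weights, a replicate block, a threshold of 0.10 and leaving out each tumour; the chain pairs and the counts of non-overlapping values were added after the data were seen.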

Additional observations from a re-analysis of the deposited data

How the results depend on the processing

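The rises of Col4a1 and Col4a2 kept their direction under all 14 alternatives, over 1.13 to 1.39 and 1.22 to 1.44, with adjusted p of 0.00124 to 0.127 and 0.000335 to 0.0745 in limma; the call was kept in 10 and 11. When 1 tumour was left out, collagens called higher ranged from 0 to 2. Collagens called lower were 13 without placebo replicate 3 and 0 without any other tumour. Over all genes these calls ranged from 31 to 1276 higher and from 0 to 1039 lower. Collagen-processing genes ranged from 0 to 7 higher and from 0 to 7 lower. Col6a1 ranged from -0.67 to 0.15, reversed at 0.15 and 0.06 without placebo replicate 1 and 2.

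Array weights called 11 collagens lower, 6 and 5 processing genes higher and lower, and 1026 and 760 of all genes. A threshold of 0.10 called 2 collagens lower, 4 and 1 processing genes, and 543 and 193 of all genes. A filter at the median signal called 2 collagens lower, Col18a1 and Col3a1, with fewer genes tested. Repeated quantile normalisation called 2 processing genes higher. Centring the arrays called 363 genes higher over all and 2 processing genes, and set the median of the other collagens at -0.067, with the median of all genes at 0.08. Where not stated, the cause was not tested.

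Same-numbered tumours did not deviate together (r = -0.03, -0.18 and -0.13), and their titles give only a shared number. With 3 tumours a group, such correlations cannot show whether tumours shared a batch. A replicate block called 0 collagens and 0 processing genes higher, and 10 genes higher and 0 lower over all; no tumour pair correlated best for its own number. The number of arrays limits precision, and with 3 tumours a group no exact test of a gene can go below p = 0.10.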
